A study of Homo sapiens with 6 samples.

Results

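Human endothelial nuclei were looked for in teratomas grown from H1 human embryonic stem cells by single-nucleus RNA sequencing. A human nucleus was a barcode with at least 500 human UMIs (unique molecular identifiers, each standing for 1 captured RNA molecule), at least 300 human genes, and at least 90% of its UMIs on the human genome. It met the endothelial rule if it held at least 1 UMI for at least 3 of 8 genes that mark vessel lining cells. The 8 genes were PECAM1 and CDH5, which join endothelial cells to each other, FLT1 and KDR, the receptors of VEGF, TEK, the angiopoietin receptor, ERG, an ETS-family transcription factor, EMCN, a surface sialomucin, and VWF, a clotting factor carrier stored in endothelial granules. The rule was met by 1281 of 54030 human nuclei, or 2.37%. These are called rule nuclei here. Because the rule used these 8 genes, how they and the genes that go with them stood in the rule nuclei against other nuclei is given as a description without a test. Comparisons between the groups, which the rule did not use, were tested over libraries.

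The study compared 3 kinds of H1 cells: DATG, a line labelled ΔATG, whose sequence change the labels do not spell out, KO, a knockout of the long non-coding RNA lncPRESS1, and WT, the unedited line. Every group was injected into the flank of immunodeficient NSG mice, mixed 1:1 with matrigel, and the tumours were frozen before nuclei were released and captured with a 10x 3' kit. Each group had 2 libraries, numbered 1 and 2. Whether the 2 libraries of a group came from separate tumours, animals or clones is not stated in the labels, nor how many clones an edited line represents, so every test below measures only the spread between these libraries. Endothelial cells line blood and lymph vessels, sense VEGF and angiopoietin through receptor kinases, and take arterial, venous, capillary or lymphatic identity as vessels mature. VEGF together with NOTCH signals sorts sprouting tip cells from their followers, and PROX1 sets the lymphatic fate. In a xenograft, vessels can be built by the host as well as by the injected cells, and the human and mouse reads are told apart here by genome.

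The label held for a minority of the rule nuclei. Of the 1281, 799 held exactly 3 of the 8 genes, and in 420 of those (52.6%) the 3 were FLT1, TEK and ERG. To check the label with genes the rule did not use, the UMIs of 41 other endothelial genes were summed in each nucleus per 10000 UMIs. The median was 8.93 in human nuclei with no rule gene, 13.8 with 1, 13.9 with 2 and 14.1 with 3. It was 62.8 with 4 genes, and 122, 143, 137 and 130 with 5, 6, 7 and 8. Nuclei just inside the threshold (3 genes, quartiles 9.24 to 23.5) were therefore close to those just outside it (2 genes), although they were deeper, with a median of 7367 against 5187 UMIs. The 325 nuclei with at least 5 rule genes stood apart from both. They were 25 and 38 in DATG, 19 and 27 in KO, and 87 and 129 in WT (libraries 1 and 2). This higher threshold was chosen after the data were seen, and results are given for both sets.

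**Figure D1:**
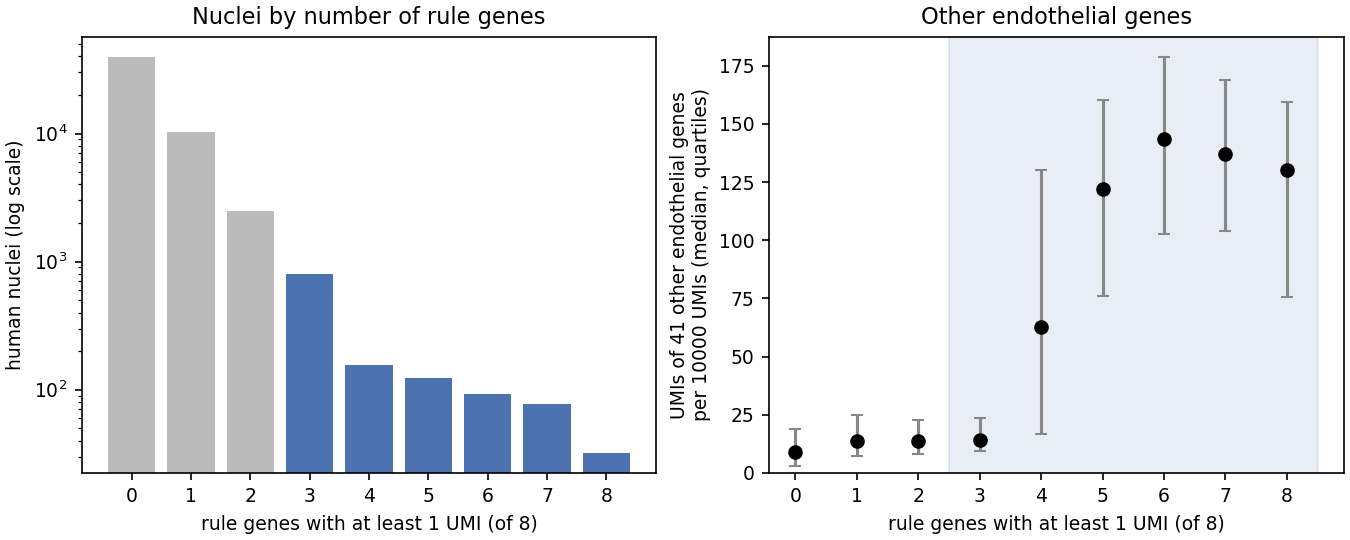
Left: number of human nuclei (log scale) by how many of the 8 rule genes had at least 1 UMI, with the nuclei that met the rule in blue. Right: median and quartiles of the UMIs of 41 other endothelial genes per 10000 UMIs at each number, with the rule's range shaded. The level at 3 rule genes (14.1) sits beside that at 2 (13.9), and the step comes at 4 and 5 genes.

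The genes that led the nuclei with at least 5 rule genes, ranked by their ratio to the human nuclei outside the rule, include receptors and nuclear proteins of the vessel wall. ERG and its relatives FLI1 and ETS1 bind a core of GGAA, with CCGGAA and CAGGAA among the preferred forms. The starts of 4 leading genes are shown so that the sequence can be read beside the levels: ADGRL4, an adhesion receptor of endothelial cells, NOTCH4, the endothelial NOTCH receptor, MYCT1, a membrane protein, and DYSF, a membrane repair protein. Each is the 300-base window around the gene start from RefSeq on GRCh38.p14, written 5′ to 3′ on the gene's strand. Capitals mark CCGGAA or CAGGAA, searched on both strands. ADGRL4 lies at chr1:79006681-79006980 (minus strand), NOTCH4 at chr6:32224018-32224317 (minus), MYCT1 at chr6:152697696-152697995 (plus) and DYSF at chr2:71453311-71453610 (plus).
ADGRL4: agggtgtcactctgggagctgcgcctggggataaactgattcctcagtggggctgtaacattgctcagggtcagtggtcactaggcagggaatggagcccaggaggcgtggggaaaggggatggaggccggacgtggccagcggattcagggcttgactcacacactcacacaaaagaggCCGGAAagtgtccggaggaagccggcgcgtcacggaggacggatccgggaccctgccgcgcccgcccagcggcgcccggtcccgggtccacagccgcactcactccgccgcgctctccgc
NOTCH4: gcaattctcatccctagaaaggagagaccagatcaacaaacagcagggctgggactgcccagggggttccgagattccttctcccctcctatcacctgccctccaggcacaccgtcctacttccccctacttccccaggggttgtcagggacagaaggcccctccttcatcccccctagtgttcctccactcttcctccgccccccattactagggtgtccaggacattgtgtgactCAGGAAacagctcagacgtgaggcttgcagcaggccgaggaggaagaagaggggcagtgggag
MYCT1: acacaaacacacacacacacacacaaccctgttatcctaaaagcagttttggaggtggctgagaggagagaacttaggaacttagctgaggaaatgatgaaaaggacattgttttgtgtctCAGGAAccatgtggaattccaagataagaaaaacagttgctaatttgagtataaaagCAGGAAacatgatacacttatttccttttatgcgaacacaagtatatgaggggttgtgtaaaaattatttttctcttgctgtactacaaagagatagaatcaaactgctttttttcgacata
DYSF: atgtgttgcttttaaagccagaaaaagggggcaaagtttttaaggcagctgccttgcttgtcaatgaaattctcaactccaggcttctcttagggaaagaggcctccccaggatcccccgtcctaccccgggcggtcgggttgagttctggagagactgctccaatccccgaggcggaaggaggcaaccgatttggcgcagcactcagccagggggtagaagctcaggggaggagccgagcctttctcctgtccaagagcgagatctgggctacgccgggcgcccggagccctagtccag
The ADGRL4 window held CCGGAA at position -70 relative to the start. NOTCH4 held CAGGAA at position -13, and MYCT1 held it at -129 and -72. The DYSF window held neither form. Of 22114 genes with 1 listed start, 17.5% held CCGGAA, 28.6% held CAGGAA and 41.7% held at least 1 of them in such a window. Of the 25 leading genes, 13 had 1 listed start: 2 of these (15.4%) held CCGGAA, 7 (53.8%) held CAGGAA and 9 (69.2%) held either. These matches describe letters only.

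The libraries held 35785812 to 47574535 UMIs on both genomes together and 5542 to 12254 human nuclei, with medians of 2664 to 4064.5 human UMIs per nucleus. Barcodes shared between libraries were few, 322 of 53707 distinct human barcodes and 17 of the rule nuclei. Doublets were marked as the top-scored nuclei of each library, their number preset at 0.8% for every 1000 human nuclei. That preset gave 4.44% to 9.80% of all human nuclei, so only the order of the scores comes from the data. By this mark, 9.42% to 21.8% of the rule nuclei per library were called doublets. The targeted RNA was near the limit of detection everywhere. LNCPRESS1 had 0 and 0 UMIs in the rule nuclei of DATG, 0 and 0 in KO, and 1 and 0 in WT, where a count of 0 allows up to 4.53 CPM in KO 1 and 1.62 CPM in KO 2. In all other human nuclei it had 1 and 3 UMIs in DATG, 3 and 0 in KO, and 8 and 3 in WT, so these counts cannot check the group labels. The DATG 2 library stood apart. In human nuclei outside the rule, FLT1 stood at 18.0 and 128 CPM (a gene's UMIs as a share of all human UMIs of the summed nuclei) in DATG, 9.55 and 33.3 CPM in KO, and 24.0 and 57.1 CPM in WT, so that DATG 2 was the highest of the 6. When nuclei were required to be 99% human, 585 of the 6090 human nuclei of DATG 2 were left.

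Among the rule nuclei, the rule genes were unevenly represented. FLT1 was detected in 87.5% of rule nuclei, against 6.95% of other human nuclei, ERG in 85.5% against 12.4%, and TEK in 65.6% against 4.08%. KDR was seen in 46.8% against 1.62%, PECAM1 in 35.5% against 0.760%, EMCN in 32.2% against 2.53%, CDH5 in 21.9% against 0.286%, and VWF in 14.8% against 0.444%. The junction genes that are most restricted to endothelium were thus missing from most rule nuclei. In the nuclei with at least 5 rule genes, PECAM1 was detected in 91.4%, CDH5 in 65.5%, KDR in 88.0%, EMCN in 74.8% and VWF in 42.8%, while TEK, at 55.1%, was less frequent than in the rule nuclei as a whole. PECAM1 averaged 116 and 55.1 CPM over the rule nuclei of DATG, 61.9 and 71.7 CPM in KO, and 159 and 190 CPM in WT. In the nuclei with at least 5 rule genes it was 401 and 375 CPM in DATG, 217 and 444 CPM in KO, and 367 and 456 CPM in WT.

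The genes outside the rule that were highest over other human nuclei belonged to the endothelial programme in every library. In the rule nuclei, RASGRP3, an exchange factor that activates RAS, led with a mean log2 ratio of 4.62 ± 0.48 (SD, n = 6 libraries, on log2(CPM + 1)). ADGRF5, an endothelial adhesion receptor, followed at 4.60 ± 0.47, then EGFL7, a secreted vessel-wall protein, at 4.41 ± 0.85, ADGRL4 at 4.39 ± 0.56, NOTCH4 at 4.26 ± 0.62 and CD34, a progenitor and endothelial sialomucin, at 4.16 ± 0.79. Of the 41 other endothelial genes, 36 were more than 1 log2 unit above other human nuclei, with a median of 2.06. In the nuclei with at least 5 rule genes, 40 of 41 were, with a median of 3.53. The summed level of the 41 genes was 4023 and 2429 CPM in the rule nuclei of DATG, 3879 and 3058 CPM in KO, and 4047 and 5596 CPM in WT. At 5 or more rule genes it was 10694 and 10394 CPM in DATG, 11261 and 9816 CPM in KO, and 7594 and 11308 CPM in WT. In other human nuclei it lay between 1215 and 1811 CPM.

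The leading genes stood further above other human nuclei in the stricter nuclei. These nuclei include 44 from a cluster described below (cluster 4) that was deep and carried genes of several types. Of all nuclei of that cluster, 43.1% were called doublets, and their part in the sums was not tested. DIPK2B, a secreted protein, stood at 259 and 132 CPM in DATG, 167 and 190 CPM in KO, and 152 and 173 CPM in WT, against 0.571 CPM over all other human nuclei. ADGRL4 stood at 964 and 997 CPM in DATG, 456 and 614 CPM in KO, and 366 and 882 CPM in WT, against 7.38 CPM outside the rule. NOTCH4 stood at 208 and 203 CPM in DATG, 268 and 246 CPM in KO, and 179 and 250 CPM in WT, against 2.09 CPM. All 6 libraries were thus far above the other nuclei for these genes, and for DIPK2B and NOTCH4 no group was apart from both others. MYCT1 stood at 137 and 182 CPM in DATG, 116 and 87.2 CPM in KO, and 54.5 and 96.9 CPM in WT, against 0.420 CPM. DYSF stood at 416 and 406 CPM in DATG, 319 and 269 CPM in KO, and 288 and 354 CPM in WT, against 4.22 CPM. Both DATG libraries were above the 4 others for MYCT1, DYSF and ADGRL4, as they were for 467 of the 7050 genes tested in these nuclei (6.62%). The order was seen in the values, carries no adjusted call, and was not that of the rule nuclei, where DYSF stood at 107 and 50.3 CPM in DATG, 77.0 and 48.5 CPM in KO, and 134 and 137 CPM in WT.

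Genes of sprouting vessels were prominent. Of 16 genes of the capillary and tip-cell list, 11 were more than 1 log2 unit above other human nuclei in the rule nuclei (median 1.69) and 15 at 5 or more rule genes (median 2.58). Over the 12074 genes at 10 CPM or more the shares were 1.65% and 4.09%. Examples at 5 or more rule genes were ESM1, a tip-cell proteoglycan, with a mean log2 ratio of 5.91 ± 0.63, and APLN, the apelin ligand of tip cells, at 5.02 ± 0.66. Outside that list, PLVAP, which forms the diaphragms of fenestrae, was at 5.99 ± 0.77, DLL4, the NOTCH ligand of tip and arterial cells, at 5.09 ± 0.66, and PDGFB, which recruits pericytes, at 4.98 ± 0.74 (all SD, n = 6 libraries). ESM1 stood at 60.9 and 188 CPM in DATG, 130 and 143 CPM in KO, and 46.0 and 227 CPM in WT, so libraries of every group overlapped.

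In nuclei with at least 5 rule genes, 4.09% of the 12074 genes at 10 CPM or more over all human nuclei were over 1 log2 unit above other human nuclei, and 17.6% were more than 1 log2 unit below them. Of the lists of vessel types, 11 of 18 arterial genes were over 1 log2 unit (median 1.52), as were 2 of 12 venous genes (median -0.10) and 4 of 10 lymphatic genes (median 0.26). Of 18 genes of VEGF and angiopoietin signalling, a list that includes rule genes, 12 were (median 1.81), as were 8 of 15 genes of vascular basement membrane (median 1.26) and 6 of 18 genes of the NOTCH pathway (median 0.47). Genes of other cell types lay on the other side: 9 of 14 mesenchymal genes, 9 of 14 pericyte and smooth muscle genes, and 9 of 12 neuronal genes were more than 1 log2 unit below other human nuclei. In the rule nuclei as a whole, none of the 14 mesenchymal and none of the 14 pericyte genes were. Few genes were so there, with 2.24% of the 12074 genes below by that much and 1.65% above. The mesenchymal genes summed there to 16112 and 12895 CPM in DATG, 1563 and 8621 CPM in KO, and 3866 and 8309 CPM in WT. At 5 or more rule genes they summed to 3896 and 5118 CPM in DATG, 456 and 2061 CPM in KO, and 2628 and 3575 CPM in WT. Macrophage genes summed to 12.7 to 47.4 CPM per library in the rule nuclei, and erythroid genes to 1.81 to 10.0 CPM, both near 0.

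The rule nuclei were then grouped by their expression without the rule genes, which gave 7 clusters. Since the nuclei and the clusters were chosen on expression, what follows is a description. In the counts of list genes by cluster, a gene counted as over 1 log2 unit only if it also had at least 20 CPM in the cluster. The share of all genes past that cut in each cluster was not computed. Clusters differ in size and depth, so a small count on a list cannot be told from that share. Cluster 1, with 271 nuclei, was endothelial-like: 37 of the 41 other endothelial genes, 13 of 16 capillary and tip genes, and 12 of 18 arterial genes were over 1 log2 unit above the other rule nuclei, against 0 of 12 venous genes and 1 of 10 lymphatic genes (FLT4, the receptor of VEGFC). Its leading genes were PRND, a prion-like protein, at 86.2 CPM against 2.01 CPM in the other rule nuclei, MSR1, a scavenger receptor, at 966 against 36.0 CPM, ESM1 at 299 against 10.9 CPM, and GJA5, the arterial gap junction protein, at 73.7 against 2.01 CPM. PECAM1 was detected in 91.1% of its nuclei. It held 26 and 55 nuclei in DATG, 5 and 16 in KO, and 48 and 121 in WT.

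Cluster 2, with 41 nuclei, was lymphatic endothelial-like, with 8 of 10 lymphatic genes over 1 log2 unit above the other rule nuclei. PROX1 stood at 672 CPM against 16.8 CPM, STAB2, a hyaluronan receptor, at 174 CPM, FLT4 at 390 against 16.2 CPM, and LYVE1 at 93.2 against 2.82 CPM. CCL21, the chemokine by which lymph vessels draw in leukocytes, was at 31.9 CPM. ESM1, GJA5 and CXCR4 had no UMI in it, and FLT1 was detected in 22.0% of its nuclei. It held 6 and 0 nuclei in DATG, 0 and 7 in KO, and 25 and 3 in WT, so that 1 library gave most of it and 2 libraries gave none. PROX1 over clusters 1, 2 and 5 stood at 227 and 9.37 CPM in DATG, 35.5 and 239 CPM in KO, and 207 and 18.1 CPM in WT, with 1 high library in each group.

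Cluster 5, with 124 nuclei, stayed unnamed. In it 25 of 41 other endothelial genes were over 1 log2 unit above the other rule nuclei, with EGFL7 at 550 CPM, CD34 at 251 CPM, PECAM1 at 256 CPM and TIE1, an orphan receptor that pairs with TEK, at 95.4 CPM. Its leading genes were of another kind. POU5F1, the pluripotency factor, stood at 60.5 CPM against 1.25 CPM in the other rule nuclei, LIN28A, an RNA-binding protein of early embryos, at 60.5 against 4.21 CPM, and the primate pluripotency transcripts ESRG at 84.1 against 2.50 CPM and XACT at 708 against 32.1 CPM. The epithelial genes EPCAM, CDH1, CLDN7 and ESRP1 were also over 1 log2 unit, as were 10 of 13 mitochondrially encoded genes. So were 5 of 12 hepatocyte and yolk sac genes (AFP, APOB, APOA1, FGB and CUBN) and 2 of 14 macrophage genes (MRC1 and F13A1) of cluster 5. Its nuclei came mostly from 3 libraries: 3 and 21 in DATG, 23 and 8 in KO, and 16 and 53 in WT.

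The 4 remaining clusters held 845 rule nuclei, or 66.0%. In none of them was any of the 41 other endothelial genes both at 20 CPM or more and over 1 log2 unit above the other rule nuclei. Those other nuclei include clusters 1, 2 and 5, where the 41 genes summed to 14761, 8441 and 8450 CPM, so this outcome was likely beforehand. The 41 genes were still detected in the 4 remaining clusters, summing to 1855 CPM in cluster 3, 2058 CPM in cluster 4, 999 CPM in cluster 6 and 1506 CPM in cluster 7. In human nuclei outside the rule they summed to 1454 CPM over all libraries, below clusters 3, 4 and 7 and above cluster 6. Cluster 3 (378 nuclei) carried mesenchyme genes, with 8 of 14 mesenchymal and 6 of 14 pericyte and smooth muscle genes over 1 log2 unit, COL3A1 at 4766 CPM and PDGFRA, a receptor of fibroblasts, at 249 CPM. In 70.1% of its nuclei FLT1, TEK and ERG were the rule genes detected, and PECAM1 was seen in 5.03%. Cluster 4 (239 nuclei) carried genes of several types and was given no name. Over 1 log2 unit at 20 CPM or more were 8 of 12 neuronal, 5 of 8 choroid plexus, 4 of 8 pigment cell, 4 of 12 neural progenitor and 3 of 12 gut epithelium genes. Without that floor, the median log2 ratios over these lists were 2.37, 1.65, 1.75, 2.58 and 1.30 in the same order. The 10 leading genes of cluster 4 held MYT1L, a neuronal transcription factor, at 106 CPM against 6.23 CPM, and TRPM1, a channel of pigment cells and retina, at 57.5 CPM against 2.40 CPM. Neuronal markers marked 51.0% of its nuclei, and 44, or 18.4%, held at least 5 rule genes. Its nuclei were the deepest, with a median of 15064 UMIs, and 43.1% of them were called doublets. Cluster 6 (115 nuclei) was led by PKHD1L1 and NPNT, a matrix protein, and cluster 7 (113 nuclei) by MUC16, a mucin, and GABRP. DATG 2 gave 62 of the 115 nuclei of cluster 6 and 91 of the 113 nuclei of cluster 7.

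**Figure D2:**
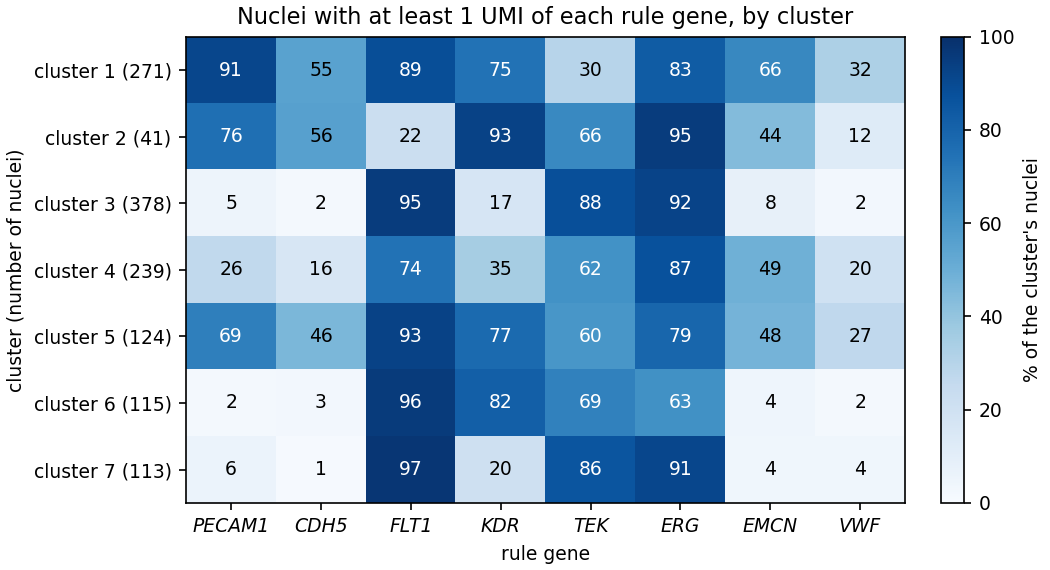
Share of the nuclei of each cluster (rows, number of nuclei in brackets) with at least 1 UMI of each rule gene (columns), printed in percent. PECAM1 is seen in 91.1% of cluster 1 and 5.03% of cluster 3, while FLT1, TEK and ERG are frequent in clusters 3, 4, 6 and 7. In those 4 clusters none of the 41 other endothelial genes was both at 20 CPM or more and over 1 log2 unit above the other rule nuclei.

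**Figure D3:**
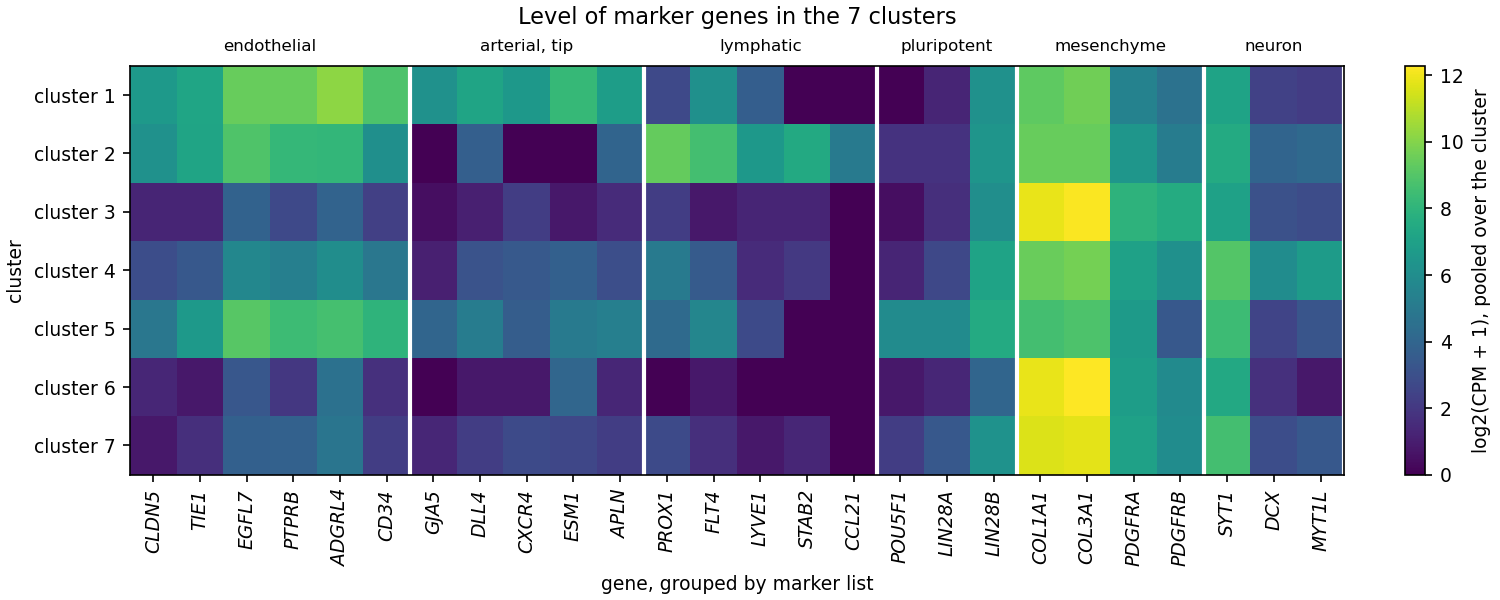
Level of marker genes (columns, grouped by list) in the 7 clusters (rows), as log2(CPM + 1) over the pooled nuclei of a cluster. Endothelial genes are bright in clusters 1, 2 and 5, arterial and tip genes in cluster 1, lymphatic genes in cluster 2, pluripotency genes in cluster 5, mesenchyme genes in cluster 3 and neuronal genes in cluster 4, which also held genes of other neural and epithelial lists.

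A share of nuclei with a few UMIs can hold background from free RNA or from barcodes with more than 1 nucleus, so the rule was applied to nuclei that should lack it. Of 8295 nuclei with at least 4 of 8 neuronal genes, 146 met the rule, or 1.76% (95% Clopper-Pearson interval 1.49 to 2.07, for counting error only), against 2.37% of all human nuclei. The neuron-marked nuclei were deeper, with a median of 4600 UMIs against 2939. By library their medians were 4023 and 3936 UMIs in DATG, 3943 and 5540 in KO, and 10132 and 4351 in WT. Those of all human nuclei were 2664 and 2757 in DATG, 2690 and 3917 in KO, and 4064.5 and 2665.5 in WT. The gap was widest in WT 1, and its part in the shares below was not tested. By library the neuron-marked nuclei met the rule in 0.752% and 4.44% in DATG, 0.620% and 1.30% in KO, and 7.81% and 3.57% in WT. At 5 or more rule genes they did so in 0.0835% and 0.403% in DATG, 0.165% and 0.355% in KO, and 2.72% and 1.05% in WT. Set beside the shares of all human nuclei given next, these levels were at least as high in WT 1, WT 2 and KO 1 for the rule, and in WT 1 and KO 2 for 5 or more rule genes. Shares at or below this level are read as background, so no difference in the amount of endothelium is read from either threshold. In clusters 1, 2 and 5 together there were 9 neuron-marked nuclei, or 0.108% of them, against 0.807% of all human nuclei. By library those were 0 of 2394 and 1 of 248 in DATG, 0 of 2420 and 2 of 1691 in KO, and 3 of 589 and 3 of 953 in WT. The clusters were built on expression, which itself sets neuronal nuclei aside, so this share is no measure of background.

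The rule nuclei made up 1.02% (interval 0.853 to 1.22) and 5.40% (4.85 to 6.0) of human nuclei in DATG, 0.505% (0.376 to 0.664) and 2.14% (1.83 to 2.48) in KO, and 3.84% (3.35 to 4.38) and 3.22% (2.91 to 3.54) in WT. Both KO libraries were below both WT libraries, and the DATG libraries lay on either side of WT. The group means were 3.21 ± 3.10% in DATG, 1.32 ± 1.16% in KO and 3.53 ± 0.44% in WT (SD, n = 2). The difference of KO minus WT was -2.21 percentage points with an exact two-sided permutation p of 0.333, the smallest that 2 libraries against 2 allow. DATG and WT overlapped (exact permutation p = 1.00), as did DATG and KO (exact permutation p = 0.667). Without DATG 2 the difference of DATG minus WT was -2.50 points, and without DATG 1 it was 1.87 points.

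With the stricter sets, every DATG and KO library was below every WT library. Nuclei with at least 5 rule genes made up 0.207% and 0.624% in DATG, 0.188% and 0.340% in KO, and 1.57% and 1.05% in WT, and the means stood at 0.317 (DATG) and 0.201 (KO) of the WT mean. The nuclei of clusters 1, 2 and 5 made up 0.289% and 1.25% in DATG, 0.277% and 0.390% in KO, and 1.61% and 1.44% in WT, with means at 0.504 (DATG) and 0.219 (KO) of WT. The exact permutation p was 0.333 for each of these 4 comparisons, again the smallest possible, so none can pass 0.05 in this design. Rule nuclei with PECAM1 or CDH5 averaged 0.822% in DATG, 0.388% in KO and 1.86% in WT, while those with neither made up 0.661% and 4.12% in DATG, 0.258% and 1.61% in KO, and 1.75% and 1.59% in WT. DATG 2 was therefore above both WT libraries among nuclei without the junction genes, and not among those with them (1.28%, against 2.09% and 1.62% in WT). Thinned to 2000 UMIs each, rule nuclei averaged 1.30% in DATG, 0.490% in KO and 1.79% in WT, and nuclei with at least 5 rule genes averaged 0.253% in DATG, 0.096% in KO and 0.584% in WT. A lower share may mean fewer endothelial cells or less of these RNAs per cell, and these cannot be told apart. The part of depth, free RNA and doublets in these differences was not tested beyond the values given.

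**Figure D4:**
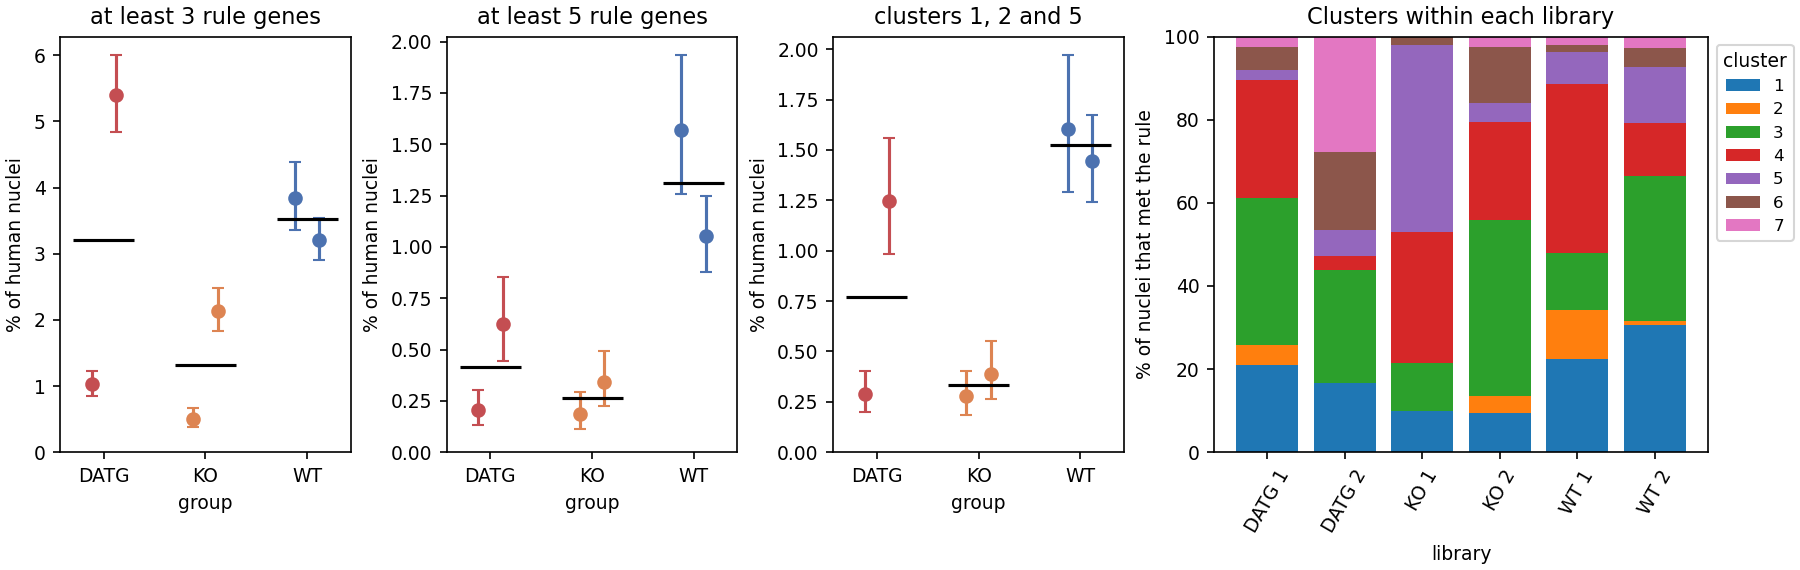
Percent of human nuclei with at least 3 rule genes, with at least 5, and in clusters 1, 2 and 5, by group (points are libraries, 1 on the left and 2 on the right, bars are 95% exact intervals, black lines are group means). The last panel splits the rule nuclei of each library by cluster. With at least 5 rule genes, the DATG (0.207% and 0.624%) and KO (0.188% and 0.340%) libraries are below the WT libraries (1.57% and 1.05%).

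Gene expression in the rule nuclei, and in stricter sets of them (at least 5 rule genes, or clusters 1, 2 and 5, of which cluster 5 has no name), was compared on UMI counts summed per library. In the rule nuclei, edgeR's quasi-likelihood test with Benjamini-Hochberg adjustment called 0 of 16452 genes (0%) in each of the 3 comparisons at an adjusted p under 0.05. Before adjustment, p was under 0.05 for 983 genes in DATG against WT, 505 in KO against WT and 1445 in DATG against KO. DESeq2 called 31 genes (0.188%) for DATG against WT, 3 (0.00972%) for KO against WT and 62 (0.439%) for DATG against KO. The biological coefficient of variation between libraries was 31.8%. A second edgeR fit asked whether a gene's ratio of rule nuclei to other human nuclei of the same library differed between groups, which sets aside differences that run through the whole teratoma. It called 0 of 24459 genes (0%) in each comparison, with 968 to 1224 genes under 0.05 before adjustment. DESeq2 called 1 gene (0.00279%) for DATG against WT, 2 (0.00558%) for KO against WT and 1 (0.00279%) for DATG against KO. Leaving out 1 library changed these counts. Without DATG 1, edgeR called 8 genes for DATG against WT and 127 for DATG against KO in the rule nuclei. The ratio gave 18 to 134 calls for DATG against WT, 2 to 46 for KO against WT and 0 to 81 for DATG against KO as each of the 6 libraries was left out in turn. After these values were seen, the ratio was also fitted for the stricter sets against the same other human nuclei. At 5 or more rule genes it called 120 of 23732 genes (0.506%) for DATG against WT, 37 (0.156%) for KO against WT and 51 (0.215%) for DATG against KO. In clusters 1, 2 and 5 it called 77 of 24018 (0.321%), 79 (0.329%) and 47 (0.196%). Such a call says that the difference between groups is not the same in these nuclei as in the other human nuclei, and it can come from a change on either side. The ratio fits give each gene 1 spread for the small stricter sums and the large other sums together. The coefficient of variation was 28.0% in the direct fit at 5 or more rule genes and 14.4% in the ratio fit of all rule nuclei. Where the stricter sums vary more than the others, the adjusted p of their ratios can be too small. The median log2 difference over all genes in these ratio fits was -0.36, -0.24 and -0.10 at 5 or more rule genes and -0.14, -0.23 and 0.10 in clusters 1, 2 and 5, in the same order of comparisons, and single genes stand beside that shift. Genes named below with an adjusted p over 0.05 did not pass, and their values are given as values.

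The endothelial genes mostly had values below 0 in the rule nuclei of both edited lines and in clusters 1, 2 and 5, and mostly above 0 at 5 or more rule genes. None of the 41 passed the direct test in any of these 3 sets. For DATG against WT, 38 of 41 other endothelial genes had a log2 fold change below 0 (median -0.73, where the median of all tested genes was -0.03). For KO against WT it was 37 of 41 (median -0.57, all genes -0.01), and for DATG against KO 21 of 41 (median -0.09, all genes 0.01). As a ratio to other human nuclei, 33 of 41 were below 0 for DATG against WT (median -0.49) and 28 of 41 for KO against WT (median -0.31), where the medians over all 24459 genes were -0.08 and -0.06. In nuclei with at least 5 rule genes, 33 of the 41 could be tested, and 24 were above 0 for DATG against WT (median 0.14) and 25 for KO against WT (median 0.14), where the medians over all 7050 genes tested there were -0.00231 and -0.00817. In clusters 1, 2 and 5, 39 could be tested, and 38 were below 0 for DATG against WT (median -0.68, all genes 0.00456) and 35 for KO against WT (median -0.38, all genes -0.01). As ratios to other human nuclei, the stricter sets had PALMD lower in the edited lines, as given next, and 2 of the 41 genes higher in KO than in WT at 5 or more rule genes, EGFL7 (2.04, edgeR adjusted p = 1.18e-06) and PLVAP (1.90, adjusted p = 0.0385). EGFL7 stood there at 487 and 403 CPM in DATG, 702 and 666 CPM in KO, and 300 and 555 CPM in WT, and in other human nuclei at 5.56 and 7.85 CPM in DATG, 3.45 and 2.99 CPM in KO, and 7.44 and 9.69 CPM in WT, so KO was highest in the one and lowest in the other. Neither gene was called for KO against WT in clusters 1, 2 and 5 (EGFL7 1.09, adjusted p = 0.379, PLVAP 0.87, adjusted p = 1.00). The set with at least 5 rule genes was itself chosen by endothelial genes. It also held 44 nuclei of cluster 4, whose nuclei were the deepest and of which 43.1% were called doublets. The makeup of the rule nuclei and of clusters 1, 2 and 5 varied between libraries. Clusters 1, 2 and 5 held 35 of 124 and 76 of 329 rule nuclei in DATG, 28 of 51 and 31 of 170 in KO, and 89 of 213 and 177 of 394 in WT. Of the nuclei in those clusters, cluster 5 made up 3 of 35 and 21 of 76 in DATG, 23 of 28 and 8 of 31 in KO, and 16 of 89 and 53 of 177 in WT. The part of that makeup was not tested.

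PALMD, an endothelial gene that encodes the membrane-associated protein palmdelphin, had the smallest unadjusted p of the endothelial list for KO against WT. In nuclei with at least 5 rule genes it stood at 25.4 and 27.7 CPM in DATG, 14.5 and 11.9 CPM in KO, and 91.3 and 80.2 CPM in WT. These levels rest on 5 and 9 UMIs in DATG, 2 and 3 in KO, and 139 and 77 in WT, so both edited lines were below WT and their own order cannot be read at this depth. The log2 fold change was -2.71 ± 0.51 (SE) for KO against WT, with an edgeR adjusted p of 0.447, and -1.62 for DATG against WT. In the rule nuclei PALMD stood at 21.7 and 32.1 CPM in DATG, 4.53 and 8.09 CPM in KO, and 40.6 and 35.8 CPM in WT (KO against WT -2.41, adjusted p = 1.00). In other human nuclei it stood at 12 and 14.9 CPM in DATG, 6.61 and 6.47 CPM in KO, and 9.06 and 6.78 CPM in WT, with DATG highest. Its ratio to them was not called in all rule nuclei (KO against WT -2.23 log2 units, adjusted p = 0.260). In the stricter sets it was lower in DATG than in WT at 5 or more rule genes (-2.63, edgeR adjusted p = 0.000480) and in clusters 1, 2 and 5 (-3.12, adjusted p = 4.34e-05). For KO against WT it was lower in clusters 1, 2 and 5 (-3.68, adjusted p = 0.000547) and did not pass at 5 or more rule genes (-2.56, adjusted p = 0.0844). The ratio of PTPRB, the endothelial phosphatase that acts on TEK, differed by -1.21 for KO against WT in the rule nuclei (adjusted p = 0.332) and by -0.33 at 5 or more rule genes (adjusted p = 0.993), where KO 1, at 463 CPM, was above both WT libraries (424 and 453 CPM). PTPRB stood in clusters 1, 2 and 5 at 536 and 181 CPM in DATG, 367 and 379 CPM in KO, and 731 and 592 CPM in WT, both edited lines below WT, and its ratio differed by -1.02 for KO against WT (edgeR adjusted p = 0.544).

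LINC02315 was the only gene called when the stricter nuclei were compared directly, and was named after its values were seen. It is a long intergenic RNA gene at chr14:40954898-40975877 on the plus strand of GRCh38. In nuclei with at least 5 rule genes it stood at 86.2 and 129 CPM in DATG, 29.0 and 7.93 CPM in KO, and 305 and 374 CPM in WT, from 17 and 42 UMIs in DATG, 4 and 2 in KO, and 464 and 359 in WT. For KO against WT edgeR gave a log2 fold change of -4.39 with an adjusted p of 0.0483, the 1 call among 7050 genes (0.0142%). In the nuclei of clusters 1, 2 and 5 it had 30 and 85 UMIs in DATG, 0 and 1 in KO, and 295 and 325 in WT. There the level in KO was 0.00645 of that in WT (95% interval 0.000163 to 0.0361, from counting error only), with an adjusted p of 0.0140, the 1 call among 9151 genes (0.0109%). The 2 stricter sets share nuclei, since 175 nuclei of cluster 1, 21 of cluster 2 and 74 of cluster 5 held at least 5 rule genes. LINC02315 was thus called lower in KO in both of the stricter sets, which are not independent. It was not called by edgeR in all rule nuclei, where LINC02315 stood at 43.4 and 124 CPM in DATG, 36.2 and 36.7 CPM in KO, and 227 and 247 CPM in WT (-2.65, adjusted p = 1.00), although DESeq2 gave an adjusted p of 0.0145. Other human nuclei showed the same order, at 78.5 and 101 CPM in DATG, 54.4 and 43.2 CPM in KO, and 133 and 205 CPM in WT, and the ratio of all rule nuclei to them differed by -0.95 log2 units (adjusted p = 1.00). In the stricter sets the ratio was called lower in KO than in WT, by -2.74 log2 units at 5 or more rule genes (edgeR adjusted p = 0.000259) and with an adjusted p of 2.02e-09 in clusters 1, 2 and 5. By these values the gap between KO and WT was larger in the stricter sets than in the other human nuclei, which also had their lowest values in KO. It rests on the few KO UMIs given, and the adjusted p of these ratios can be too small. Cluster 5 made up 23 of 28 and 8 of 31 nuclei of clusters 1, 2 and 5 in KO, and 16 of 89 and 53 of 177 in WT. The part of that makeup was not tested.

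H19, an imprinted long non-coding RNA of embryonic tissues, was nearly missing from DATG. It had 1 and 0 UMIs in the rule nuclei of DATG, 41 and 198 in KO, and 541 and 578 in WT, which is 0.903 and 0 CPM in DATG, 61.9 and 107 CPM in KO, and 137 and 193 CPM in WT. Neither DATG library overlapped any other. The edgeR adjusted p for DATG against WT was 0.107, while DESeq2 gave 9.06e-08. In nuclei with at least 5 rule genes it had 0 and 0 UMIs in DATG and 294 and 87 in WT, which makes it at least 26.7-fold lower in DATG at a floor of 3 UMIs over the group (edgeR adjusted p = 0.0841). Other human nuclei had 0.888 and 0.790 CPM in DATG, 21.0 and 49.0 CPM in KO, and 77.2 and 122 CPM in WT, so the difference ran through the whole teratoma.

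RHEX, a regulator of erythropoietin signalling in red cell precursors, had low values in DATG as well. It was among the 10 leading genes of cluster 4, at 107 CPM against 6.95 CPM in the other rule nuclei. It stood at 2.71 and 6.06 CPM in the rule nuclei of DATG, 106 and 75.5 CPM in KO, and 70.2 and 46.1 CPM in WT, with an edgeR log2 fold change for DATG against WT of -3.37 ± 0.43 (SE, adjusted p = 0.230, DESeq2 6.20e-06). Its values in other human nuclei were 19.5 and 6.13 CPM in DATG, 111 and 124 CPM in KO, and 85.6 and 52.6 CPM in WT. In clusters 1, 2 and 5 it had 1 and 2 UMIs in DATG, 8 and 2 in KO, and 4 and 3 in WT, or 4.83 and 3.12 CPM in DATG against 4.89 and 3.62 CPM in WT, so DATG and WT overlapped there.

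The 13 mitochondrially encoded genes had higher values in DATG. All 13 were above 0 in the rule nuclei for DATG against WT (median 2.73) and for DATG against KO (median 2.76), beside the all-gene medians given above with the endothelial genes. The 13 summed there to 7861 and 4388 CPM in DATG, 1193 and 1304 CPM in KO, and 1475 and 586 CPM in WT. In other human nuclei they summed to 4713 and 5350 CPM in DATG, 1637 and 1053 CPM in KO, and 1707 and 702 CPM in WT, so both DATG libraries were highest there too. As a ratio of rule nuclei to other nuclei the medians were 0.44 for DATG against WT and 0.26 for DATG against KO. In nuclei, mitochondrial reads come from material outside the nucleus, and their part in other differences was not tested.

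**Figure D5:**
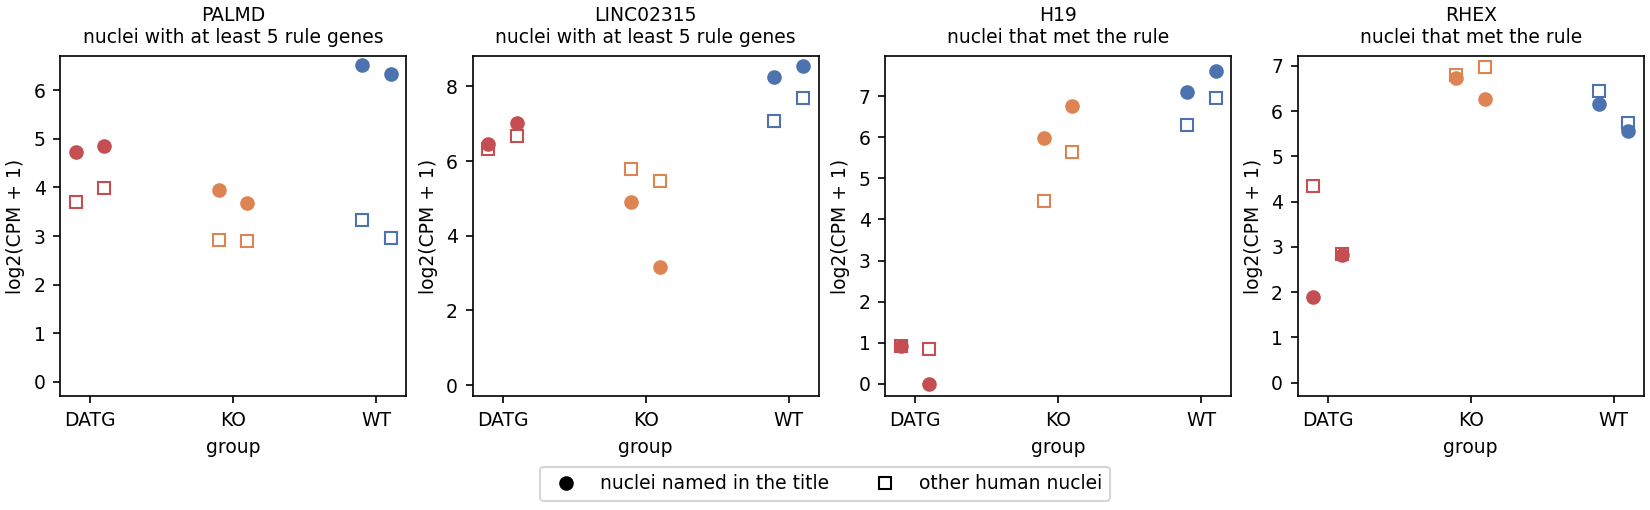
Level of PALMD and LINC02315 in nuclei with at least 5 rule genes and of H19 and RHEX in the rule nuclei (filled circles), beside human nuclei outside the rule (open squares), as log2(CPM + 1) per library by group. PALMD is highest in WT in the nuclei with at least 5 rule genes and highest in DATG in the others, while LINC02315, H19 and RHEX show the same order of groups in both.

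Several other genes were separated between groups without passing the adjustment in the direct comparison, and their levels in the human nuclei outside the rule differ in kind. ANO2, a calcium-activated chloride channel, had 142 and 132 CPM in the nuclei with at least 5 rule genes of DATG, 65.2 and 47.6 CPM in KO, and 200 and 173 CPM in WT, against 11.1 to 27.1 CPM in other human nuclei. Its log2 fold change was -1.75 for KO against WT (edgeR adjusted p = 0.447). The nuclei of clusters 1, 2 and 5 gave 256 and 81.2 CPM in DATG, 53.2 and 41.2 CPM in KO, and 324 and 201 CPM in WT, again with KO below WT. Its ratio to other human nuclei was lower in KO than in WT at 5 or more rule genes (-1.93, edgeR adjusted p = 0.0104) and in clusters 1, 2 and 5 (-2.78, adjusted p = 2.77e-05). ACSM3, a mitochondrial acyl-CoA synthetase, had 213 and 246 CPM in DATG, 72.4 and 83.2 CPM in KO, and 61.8 and 63.5 CPM in WT at 5 or more rule genes (DATG against WT 1.93, edgeR adjusted p = 0.127). In other human nuclei it had 13.7 and 82.8 CPM in DATG, 10.5 and 14.9 CPM in KO, and 96.6 and 56.2 CPM in WT. The rule nuclei as a whole had 44.2 and 54.5 CPM in DATG, 25.7 and 45.9 CPM in KO, and 99.7 and 33.7 CPM in WT (DATG against WT -0.24), so DATG was apart at 5 or more rule genes and not in the rule nuclei or the others. Its ratio at 5 or more rule genes was higher in DATG (2.73, edgeR adjusted p = 1.14e-08) and in KO (2.75, adjusted p = 1.23e-05) than in WT, with the level outside the rule lower in KO than in WT.

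ERBB4, a neuregulin receptor, had 122 and 58.5 CPM in DATG, 717 and 539 CPM in KO, and 740 and 569 CPM in WT at 5 or more rule genes (DATG against WT -2.85, edgeR adjusted p = 0.0841). It stood higher in other human nuclei of every library, at 832 to 1831 CPM, and in clusters 1, 2 and 5 it had 62.8 and 70.3 CPM in DATG, 213 and 252 CPM in KO, and 136 and 128 CPM in WT. DATG was lowest in both of these sets, and its ratio was called lower than in WT at 5 or more rule genes (-2.95, edgeR adjusted p = 2.25e-14) and not in clusters 1, 2 and 5 (-1.03, adjusted p = 0.440). PTPRT, a receptor phosphatase, had 132 and 188 CPM in DATG, 7.24 and 15.9 CPM in KO, and 99.2 and 83.3 CPM in WT at 5 or more rule genes (DATG against KO 3.70, edgeR adjusted p = 0.113), and 84.9 to 305 CPM in other human nuclei. Its levels in KO rest on 1 and 4 UMIs, and its ratio was called at 5 or more rule genes (DATG against KO 2.78, edgeR adjusted p = 0.00197). In clusters 1, 2 and 5 PTPRT had 24.2 and 74.98 CPM in DATG, 0 and 53.6 CPM in KO, and 25.7 and 31.4 CPM in WT, and DATG and KO overlapped (0.88, edgeR adjusted p = 1.00, ratio 0.00378, adjusted p = 1.00).

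HPGD, which degrades prostaglandins, had in the rule nuclei 8.13 and 12.7 CPM in DATG, 12.1 and 5.39 CPM in KO, and 34.1 and 52.5 CPM in WT (KO against WT -2.42, edgeR adjusted p = 1.00). Both edited lines were below WT there, while in other human nuclei DATG 2, at 30.9 CPM, was above both WT libraries. At 5 or more rule genes HPGD had 25.4 and 58.5 CPM in DATG, 57.9 and 27.7 CPM in KO, and 57.2 and 109 CPM in WT, and the groups overlapped (KO against WT -1.03, edgeR adjusted p = 1.00). The levels in clusters 1, 2 and 5 were 19.3 and 42.2 CPM in DATG, 11.8 and 28.9 CPM in KO, and 81.9 and 149 CPM in WT, both edited lines below WT (KO against WT -2.45, edgeR adjusted p = 1.00), on 2 and 7 UMIs in KO. ADAMTSL1, a matrix protein, had in the rule nuclei 161 and 155 CPM in DATG, 325 and 327 CPM in KO, and 153 and 149 CPM in WT (KO against WT 1.15, edgeR adjusted p = 1.00), and in clusters 1, 2 and 5 its fold change had the other sign (-0.43). Other human nuclei had 330 and 181 CPM in DATG, 466 and 595 CPM in KO, and 226 and 231 CPM in WT, with KO highest there too, and the ratio to them differed by -0.16 (edgeR adjusted p = 1.00).

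Markers of other cell types leaned one way in several comparisons between the groups, though none of the 14 mesenchymal and 12 neuronal genes passed the direct test in the rule nuclei or at 5 or more rule genes. In the rule nuclei, 13 of 14 mesenchymal genes were above 0 for DATG against WT (median 1.00), and in nuclei with at least 5 rule genes 10 of the 12 that could be tested were below 0 for KO against WT (median -1.0) and 10 above 0 for DATG against KO (median 1.67). All 12 neuronal genes were above 0 for KO against WT in the rule nuclei (median 1.37), as were all 8 that could be tested at 5 or more rule genes (median 0.88), and all 12 were below 0 for DATG against KO (median -1.58). Of all 7050 genes tested at 5 or more rule genes, 3479 were above 0 for KO against WT (median -0.00817). For DATG against KO 3552 were (median 0.00392). The all-gene medians of the rule nuclei are given above with the endothelial genes. The summed neuronal level in the rule nuclei was 883 and 754 CPM in DATG, 2935 and 1341 CPM in KO, and 913 and 900 CPM in WT. In other human nuclei it was 2806 and 1007 CPM in DATG, 3190 and 3297 CPM in KO, and 1234 and 1576 CPM in WT. Both KO libraries were thus highest in either set, and the part of these RNAs in the gene comparisons was not tested.

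Vessels of the host were looked for with the mouse forms of the same 8 genes in mouse nuclei. Of the mouse nuclei, 5 of 87 (5.75%) and 12 of 547 (2.19%) met that rule in DATG, 10 of 191 (5.24%) and 30 of 324 (9.26%) in KO, and 5 of 101 (4.95%) and 10 of 139 (7.19%) in WT. With 5 to 30 such nuclei a library the intervals were wide, from 1.89% to 12.9% in DATG 1 and from 6.33% to 13% in KO 2, and the groups overlapped. As a background, 968 mouse nuclei carried at least 4 of 8 fibroblast genes (Pdgfra, Col1a1, Col1a2, Col3a1, Dcn, Lum, Prrx1 and Col6a3), and 6 of them met the mouse rule, or 0.620% (interval 0.228 to 1.34), against 72 of all 1389 mouse nuclei (5.18%). By library that background was 0% and 0.265% in DATG, 0.794% and 1.37% in KO, and 1.25% and 0% in WT, below the share of all mouse nuclei in each library. Median depth was 3419 to 3805 mouse UMIs in all mouse nuclei of DATG, 2359 to 3269 in KO and 2994 to 5025 in WT, and 2400 to 5011.5 in the fibroblast-marked nuclei.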

How the data were processed

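Nuclei were taken from frozen teratomas and sequenced with a 10x 3' kit. The deposited UMI counts per gene and barcode were made by the authors with Cell Ranger 8.0.1 on human and mouse genomes, per the submitters' processing notes. From them, human nuclei were selected (500 UMIs, 300 genes, 90% human), the endothelial rule applied, and counts summed per library. Members and gene lists were chosen with earlier results of these data known. Sums were compared with edgeR 4.0.16 (quasi-likelihood, TMM, filterByExpr, all 6 libraries) and, as an alternative, DESeq2 1.42.0, with a threshold of 0.05. Shares were compared by exact permutation. Clusters came from scanpy 1.11.5 (1000 variable genes without rule and mitochondrial genes, 20 components, 15 neighbours, Leiden resolution 0.5). Doublets were called per library as a preset number of top-scored nuclei (0.8% for every 1000 human nuclei), kept, and left out as an alternative. Ratios to other nuclei used a pseudocount of 1 CPM. The naming rule took, per comparison and direction, the genes past the threshold with the largest fold change, a mean of 20 CPM or more and groups that did not overlap, filled up to 4 with the smallest p, plus up to 3 genes of each list. Each UMI sum is limited by counting error and by 2 libraries a group. Versions: Python 3.11.15, R 4.3.3. The fits were tested on simulated counts.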

Additional observations from a re-analysis of the deposited data

How the results depend on the processing

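The difference of KO minus WT in the share of rule nuclei kept its sign under every alternative run, from -3.02 to -1.39 percentage points as each library was left out. That of DATG minus WT changed sign with at least 2 rule genes (0.621), at least 99% human UMIs (4.64), among nuclei with neither PECAM1 nor CDH5 (0.720) and without DATG 1 (-2.50 to 1.87 over the libraries left out). DATG minus KO changed sign without DATG 2 (-0.298 to 4.08). The cause was not tested. The median ratio of the 41 other endothelial genes went to 3.53 at 5 or more rule genes.

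Counts of called genes moved most with the filter on low counts. With no filter edgeR called 351 genes for DATG against WT, 112 for KO against WT and 594 for DATG against KO in the rule nuclei, and 225, 106 and 110 in the ratio. DESeq2 called 31, 3 and 62, and 1, 2 and 1 in the ratio. For KO against WT, 1 gene was called at 5 or more rule genes and 1 in clusters 1, 2 and 5, both added after the data were seen. Ratios for those sets, added later still, gave 120, 37 and 51 calls and 77, 79 and 47 calls in the order DATG against WT, KO against WT, DATG against KO. Leaving out each library, calls ranged over 0 to 8, 0 to 0 and 0 to 127 in the rule nuclei, and over 18 to 134, 2 to 46 and 0 to 81 in the ratio. A lone library was then assumed to vary like the other groups. With a replicate block edgeR called 0, 0 and 0 genes (1143, 552 and 1733 at an unadjusted p under 0.05). The correlation of deviations between same-numbered libraries was -0.173 for DATG and WT, 0.214 for KO and WT and 0.108 for DATG and KO. With 2 libraries a group these values cannot tell whether same-numbered libraries were handled together, and the sample titles give only the number. The named genes made 49 entries, each a gene in 1 comparison and 1 kind of fit, so some genes entered more than once. Of their 656 alternative values, 490 kept direction and side of the threshold, 150 passed the threshold where the main value had not, and 16 reversed. These were ADAMTSL1 for KO against WT in clusters 1, 2 and 5 (-0.43) and NR5A2 for DATG against WT at 5 or more rule genes (0.038), and, in the ratio for 5 or more rule genes, COBL (-2.94) and GATA4 (-0.00332) for KO against WT, PCDH7 (-0.43), ACTA2 (-1.76) and FRZB (-0.26) for DATG against WT and COBL (2.66) for DATG against KO. In the ratio for clusters 1, 2 and 5 they were PCDH7 (-0.42), ACTA2 (-1.78), FRZB (-0.27), FSTL5 (0.99) and BRINP3 (1.00) for DATG against WT and CADM3 (-8.70), BRINP3 (1.33) and LRP1B (0.39) for DATG against KO. With 51 rule nuclei in KO 1 and 19 and 27 stricter nuclei in KO, small differences were not detectable at this depth.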

Other observations

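Cluster 5 joined endothelial and pluripotency genes, and the pluripotency transcript XACT was uneven between libraries. Over the nuclei of clusters 1, 2 and 5, XACT stood at 0 and 745 CPM in DATG, 668 and 20.6 CPM in KO, and 31.8 and 181 CPM in WT. In each edited line 1 library was high and the other low, so it did not separate the groups. It was chosen after its values were seen.

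CHCHD2, a mitochondrial intermembrane protein, had 0 and 0 UMIs in the rule nuclei of DATG, 10 and 17 in KO, and 48 and 32 in WT. DESeq2 called it for DATG against WT (adjusted p = 0.0327) and edgeR did not (adjusted p = 0.474). Other human nuclei were likewise low in DATG, at 0.585 and 0.279 CPM, against 23.1 and 12.6 CPM in KO and 12.9 and 23.3 CPM in WT. Cluster 6 was led by PKHD1L1 at 184 CPM against 3.58 CPM in the other rule nuclei and NPNT at 1414 against 41.6 CPM, and FLT1, KDR and TEK were the rule genes of 34.8% of its nuclei. Cluster 7 was led by MUC16 at 62.9 against 1.92 CPM and GABRP at 132 against 6.64 CPM.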
